A study of Mus musculus with 16 samples.

Results

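Cell division and DNA replication were followed through 36 member genes of the aorta of atherosclerotic mice, chosen by symbol: G1 and S phase cyclins and kinases, cell cycle inhibitors, the replicative helicase, the replication clamp and nucleotide supply, and genes of mitosis. A probe set counted for a member when the platform annotation gave it a single symbol, and that symbol, in its RefSeq form where listed, was the member's. On this rule 35 of the 36 members had a probe set, of 18193 gene symbols on the array. Ccnb1 (cyclin B1) had no probe set with its symbol alone, and no value is given for it. In all, 29 of the 35 members had a probe set above the median signal and were tested, among 11042 genes. The other 6 members, Tyms, Bub1, Bub1b, Aurkb, Kif11 and Ect2, lay in the lower part of the signal and are described apart.

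RNA from the whole aorta of 16 mice lacking apolipoprotein E (ApoE-/-) was hybridised to 16 Affymetrix arrays, with 1 mouse per array. Mice of this genotype develop atherosclerosis, and the study asked how diabetes and the inhibition of protein kinase C beta alter gene expression in their aorta. Every mouse was ApoE-/- and 18 weeks old, and each had eaten a high fat diet during the last 10 weeks. The diabetic mice had received streptozotocin (STZ), a toxin of insulin-producing cells, at 6 weeks of age. The RBX groups ate the same diet with added ruboxistaurin (RBX), which inhibits protein kinase C beta; the sources used here do not state its dose. The 4 groups of 4 mice were non-diabetic, non-diabetic RBX, diabetic, and diabetic RBX. Both non-diabetic groups carried the same genotype and diet as the diabetic groups, so no group stood for a healthy vessel. The mice were labelled biological replicates, and p-values measure the spread between them.

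Cells enter division when D-type cyclins with Cdk4, and then cyclin E with Cdk2, inactivate the retinoblastoma protein and free E2F transcription factors. E2F then drives replication genes, including those of the MCM helicase, which unwinds DNA. Inhibitors such as p21 (Cdkn1a) and p57 (Cdkn1c) hold the kinases back, and Cdk1 with cyclins A and B drives mitosis. In atherosclerotic vessels smooth muscle cells, macrophages and endothelial cells can all divide, and whole tissue does not tell which of them did. In whole tissue, fewer cells of a type and less RNA per cell cannot be told apart.

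All 9 smooth muscle, 11 macrophage, 9 endothelial and 8 fibroblast markers had signals above the array median, so the defining markers of the labelled tissue were present. Of the measured markers of lymphocytes only 1 of 7 T cell and 1 of 7 B cell markers did; Cd3d, Cd3e, Cd3g and Cd79a lay below it. The arrays of the non-diabetic RBX group stood apart. Their median signals were 443 to 531, against 379.8 to 462 on the other 12 arrays. Their cre hybridisation control read 308744 to 575618, against 156465 to 294507 elsewhere, with no overlap. The Actb control, whose 3′ signal over its 5′ signal reads RNA integrity and labelling, had a mean log2 ratio of 2.08 in that group, 1.04 in non-diabetic, 1.34 in diabetic and 1.71 in diabetic RBX mice. The summed signals of cell type markers moved with that group as well. Summed white adipocyte markers averaged 193680 in non-diabetic RBX and 82136 in non-diabetic mice, and brown adipocyte markers 73692 and 24964. Endothelial markers averaged 71014 and 42308, macrophage markers 400709 and 261581, and smooth muscle markers 384862 and 468748. Summed B cell markers were 2227 to 54154 in non-diabetic mice and 2342 to 3956 in all other mice. Every comparison that contains the non-diabetic RBX mice carries the differences of that group.

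The members spanned the range of the array signal. Of their 84 probe sets, 53 lay above the median of all probe sets, a linear signal of 382, and 22 lay between the 25th percentile and the median. A further 9 lay near the low end, below the 25th percentile (a signal of 103): 3 of Tyms and 1 each of Cdk2, Cdkn1b, Mcm5, Cdc20, Aurka and Top2a. No member had its brightest probe set near the low end. The brightest probe set of 12 members stood at or above the 80th percentile, among them those of the D-type cyclins and Pcna. That of 5 members, Ccne1, Aurka, Plk1, Ccnb2 and Birc5, stood between the 50th and the 60th, close to the median that set what was tested. Probe sets differ in brightness, so these positions do not rank transcripts. Absence was called for none of them, since detection calls were not used here. For 14 members with more than 1 probe set above the median, 17 of the 24 other probe sets had the sign of the tested one for diabetes without RBX, and 10 of 24 for diabetes with RBX.

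**Figure D1:**
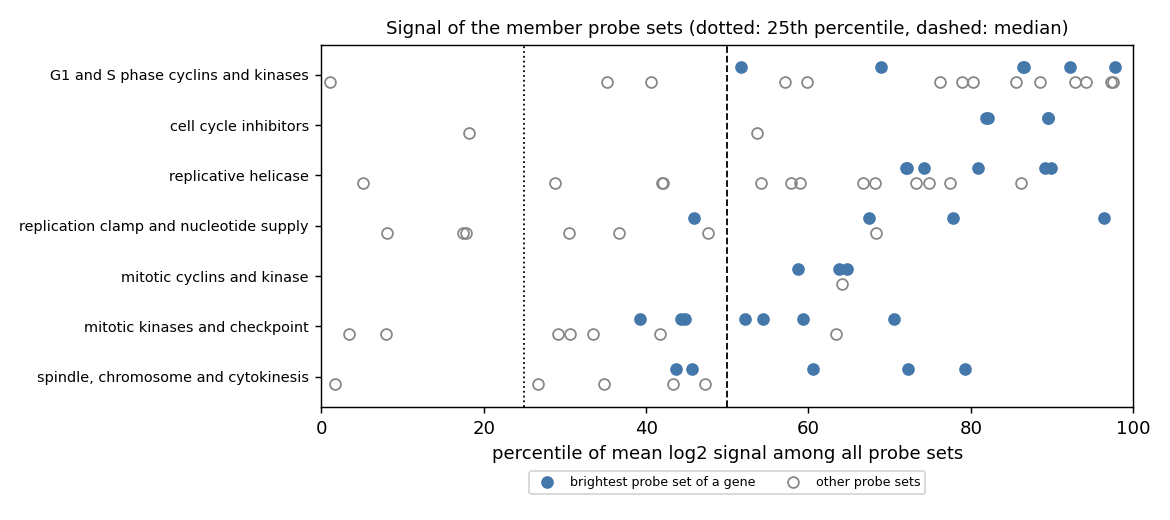
Percentile of the mean log2 signal of each of the 84 member probe sets among all probe sets of the array (x axis), by role (y axis). Filled points are the brightest probe set of a gene and open points the others. The 9 points left of the dotted line (25th percentile) are all open, and 29 filled points lie right of the dashed line (median).

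Promoters of 4 members are shown. Mcm7 passed the test, and Top2a and Mki67 are markers of division. The tested probe set of Mcm5 separated the diabetic from the non-diabetic mice without passing the test. Each promoter runs from 250 bases before to 50 bases after the start of transcription, 5′ to 3′, from RefSeq on GRCm38.p6. Mcm5 is chr8:75109259-75109558 on the plus strand. Mcm7 is chr5:138171834-138172133, Top2a chr11:99024140-99024439 and Mki67 chr7:135716330-135716629, all on the minus strand. Capitals in Mcm5 and Mcm7 mark matches to the E2F motif TTTNGCGC on either strand. In Top2a and Mki67 they mark the CCAAT box (CCAAT) and the cell cycle homology region, or CHR (TTTGAA), on either strand.
Mcm5: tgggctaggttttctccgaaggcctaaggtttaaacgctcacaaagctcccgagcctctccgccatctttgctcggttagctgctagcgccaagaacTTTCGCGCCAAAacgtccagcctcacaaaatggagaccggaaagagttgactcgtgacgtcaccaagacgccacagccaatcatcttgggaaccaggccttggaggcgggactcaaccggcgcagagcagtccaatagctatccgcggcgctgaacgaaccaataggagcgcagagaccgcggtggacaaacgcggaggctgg
Mcm7: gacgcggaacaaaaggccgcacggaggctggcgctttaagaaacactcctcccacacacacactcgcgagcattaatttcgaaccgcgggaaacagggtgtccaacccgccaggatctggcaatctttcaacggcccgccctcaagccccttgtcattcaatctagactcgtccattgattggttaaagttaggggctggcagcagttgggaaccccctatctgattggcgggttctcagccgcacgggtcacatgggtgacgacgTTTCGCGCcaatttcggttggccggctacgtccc
Top2a: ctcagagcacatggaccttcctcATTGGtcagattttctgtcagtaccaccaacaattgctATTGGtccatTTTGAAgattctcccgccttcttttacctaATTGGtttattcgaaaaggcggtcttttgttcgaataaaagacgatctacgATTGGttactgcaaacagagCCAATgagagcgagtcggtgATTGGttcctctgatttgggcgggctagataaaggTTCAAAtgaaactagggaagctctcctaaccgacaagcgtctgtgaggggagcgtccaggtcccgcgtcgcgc
Mki67: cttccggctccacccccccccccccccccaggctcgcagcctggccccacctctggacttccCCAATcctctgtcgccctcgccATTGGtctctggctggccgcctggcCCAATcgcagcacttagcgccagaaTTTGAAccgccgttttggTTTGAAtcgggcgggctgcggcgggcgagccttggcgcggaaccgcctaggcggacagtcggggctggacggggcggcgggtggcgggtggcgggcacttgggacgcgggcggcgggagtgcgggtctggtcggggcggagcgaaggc
The capitals in Mcm5 hold 2 overlapping matches, on opposite strands, at bases -153 to -146 and -149 to -142 from the start. The match in Mcm7 lies at bases 17 to 24 after the start, and its last base is shared with a CCAAT box. Top2a has 6 CCAAT boxes and 2 CHR matches, and Mki67 has 3 and 2.

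Promoters were found for 30 of the 36 members; Ccnd1, Ccnd2, Cdkn1c, Mcm4, Ccna2 and Aurkb had no entry. The E2F motif was in 4 of 5 helicase members (Mcm3, Mcm5, Mcm6 and Mcm7, the last in 1 of its listed promoters), against 1.38% of all 32851 promoters of the same length. A CCAAT box was in 12 of 14 mitotic members, against 37.4% of all promoters, and a CHR in 10 of 14, against 17.9%. Both stood together in 10 of 14 mitotic members and in 6.95% of all promoters. The inhibitors and the G1 cyclins and kinases with an entry had neither a CHR nor an E2F match. A match is a description of the letters and not a measured binding site.

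In diabetic compared with non-diabetic mice without RBX, no member passed the test. The limma fit called 0 of 29 members, and it called 0.652% of all genes, 0.326% higher and 0.326% lower. At an unadjusted p under 0.05 there was 1 member, Ccne1, against 15.2% of all genes. The values leaned one way: 25 of 29 members lay above 0, with a median log2 difference of 0.17, against 52.4% of all genes and a median of 0.013. The members were measured in the same mice and are not independent of one another, here and in the counts that follow. The values ran from -0.27 for Ccnd3 to 0.70 for Aurka. The groups did not overlap for 2 members, Mcm5 and Ccnb2, against 9.45% of all genes. Leaving out any 1 mouse of these groups left 24 or 25 above 0. The median was 0.10 without diabetic mouse 4 and 0.25 without diabetic mouse 1. Summed macrophage markers were 229704 to 346596 in non-diabetic and 267549 to 381717 in diabetic mice, and summed endothelial markers 39268 to 46048 and 43506 to 72598. Of the single markers 11 of 11 macrophage and 9 of 9 endothelial ones lay above 0, and 7 of 9 smooth muscle ones below 0, with a median of -0.38. B cell markers, as given above, were high only among non-diabetic mice. The log2 Actb ratio was 0.85 to 1.32 in non-diabetic and 1.16 to 1.52 in diabetic mice. The part of these in the lean of the members was not tested.

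In diabetic mice given RBX, compared with diabetic mice without it, no member passed either. The fit called 0 of 29 members and 0.0453% of all genes, 0.00906% higher and 0.0362% lower. The lean was opposite: 24 of 29 members lay below 0 and 5 above, with a median of -0.17. Over all genes 46.7% lay above 0 and the median was -0.018. These comparisons share the diabetic mice, so their opposite signs are not independent. At an unadjusted p under 0.05 there were 5 members, Mcm4, Top2a, Mcm7, Cdkn1c and Pcna, against 9.18% of all genes. The groups did not overlap for 4 members, against 6.88% of all genes. Without diabetic RBX mouse 1, 8 members lay above 0 in place of 5, and without diabetic RBX mouse 4 the median was -0.094. Without diabetic mouse 1 it was -0.28. With the Actb ratio as a covariate, 9 of the 29 members lay above 0. Summed smooth muscle markers were 385436 to 470417 in diabetic and 480374 to 533639 in diabetic RBX mice, without overlap, and 8 of 9 single markers lay above 0. The log2 Actb ratio was 1.16 to 1.52 and 1.47 to 1.89. The part of these in the lean was not tested.

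With RBX in non-diabetic mice 3 of 29 members rose (Cdkn1a, Cdkn1c and Ccnd1) and 0 fell, so 10.3% were called. Of all genes tested 31.6% were called in this comparison, with 16.5% higher and 15.1% lower. At an unadjusted p under 0.05 there were 8, against 42.7% of all genes, and the median member moved by 0.0032, against 0.032 over all genes. The groups did not overlap for 4 members, against 27.5% of all genes. Cdkn1a and Cdkn1c are inhibitors of the cycle, and Ccnd1 is a G1 cyclin. The called share of the members lay below that of all genes, so no pattern by role is read from these calls.

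With RBX in both groups 2 of 29 members, Cdkn1a and Mcm4, were lower in diabetic mice and 0 were higher, while 7.1% of all genes were called, 4.44% higher and 2.66% lower. The groups did not overlap for 3 members, against 12.5% of all genes. The interaction (the RBX difference of the diabetic mice less that of the non-diabetic mice) passed the test for the same 2 members, both below 0, against 11.5% of all genes, 6.02% above and 5.5% below 0. The median interaction was -0.23 over the members and -0.059 over all genes. It was -0.13 without non-diabetic RBX mouse 3 and -0.13 without diabetic mouse 4. These comparisons share the non-diabetic RBX mice with the preceding one. Averaged over both diabetes states, 2 members rose with RBX, Cdkn1c and Mcm7, against 19.9% of all genes called and 9.41% higher. Averaged over both diets, 0 of 29 members changed with diabetes, against 0.0906% of all genes called, 0.0725% higher and 0.0181% lower. At an unadjusted p under 0.05 there were 4 members, against 9.92% of all genes.

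**Figure D2:**
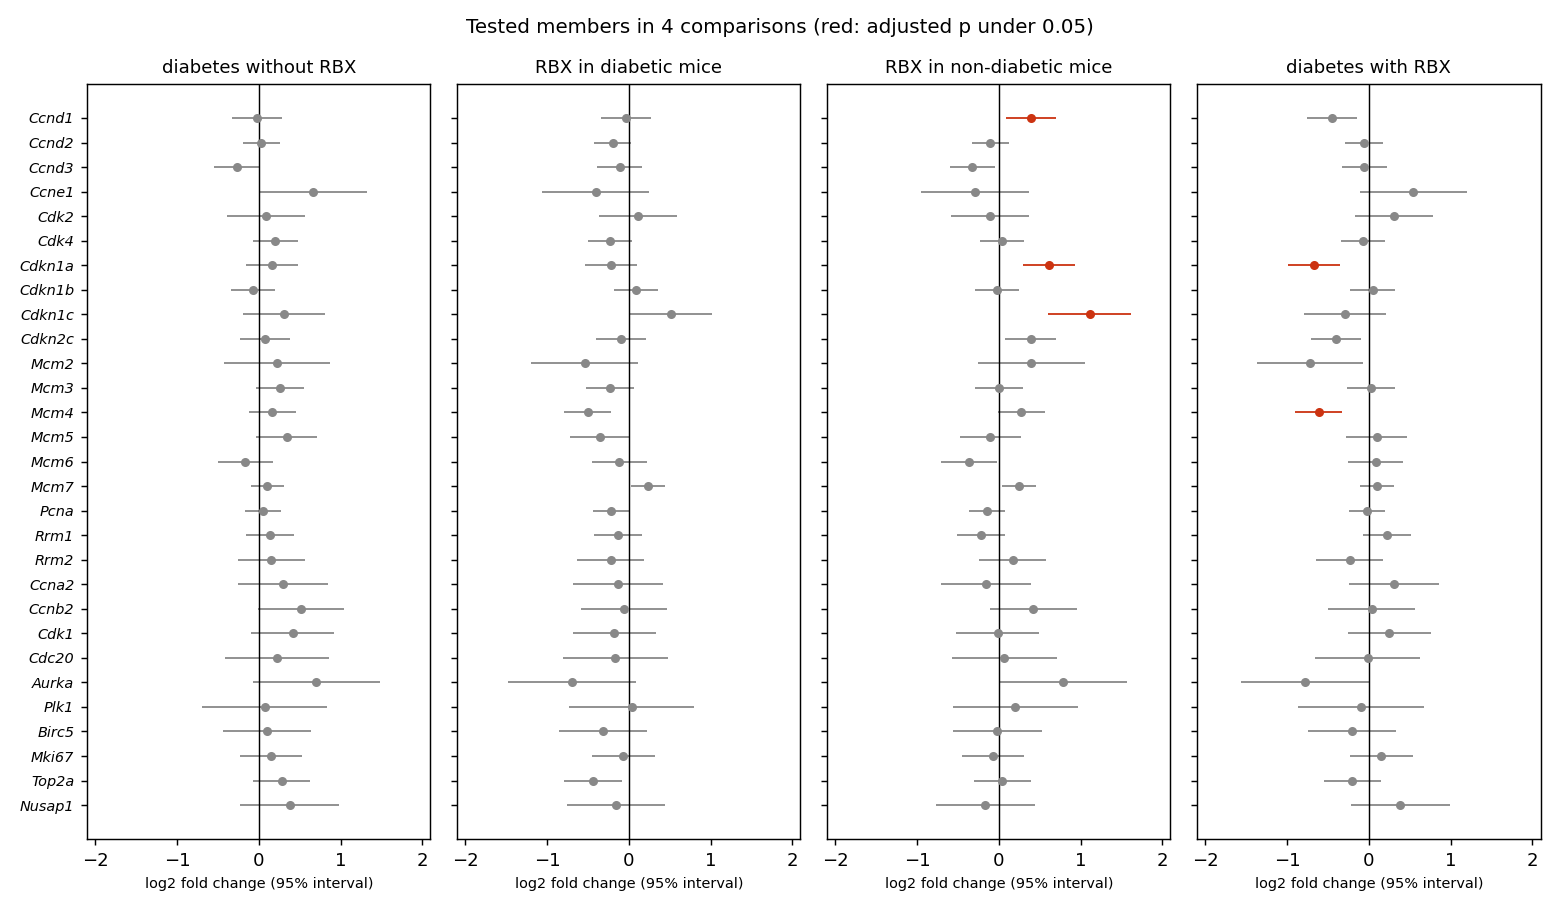
Log2 fold change with its 95% interval (x axis) for each of the 29 tested members (y axis, in order of role) in 4 comparisons of 2 groups. Red points passed an adjusted p under 0.05: Cdkn1a, Cdkn1c and Ccnd1 for RBX in non-diabetic mice, and Cdkn1a and Mcm4 for diabetes with RBX. Most points lie right of 0 in the first panel and left of 0 in the next.

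Among the inhibitors, Cdkn1a encodes p21, which binds cyclin and kinase complexes and is a target of p53. Its signal in mice 1 to 4 was 4059, 3578, 4134 and 3558 in the non-diabetic group and 4916, 5957, 6849 and 5934 in the non-diabetic RBX group. In the diabetic group it was 3777, 4374, 4192 and 4908, and in the diabetic RBX group 2706, 4231, 3342 and 4850. All 4 non-diabetic RBX mice were above all other mice, and the other groups overlapped one another. Cdkn1a rose with RBX in non-diabetic mice, from 3832 ± 307 to 5914 ± 790.1 (SD, n = 4), a log2 change of 0.62 (SE 0.15) with an adjusted p of 0.00490. In diabetic mice the RBX difference was -0.22 (SE 0.15), with an adjusted p of 0.698. The interaction was -0.84 (SE 0.21), with an adjusted p of 0.0176. With RBX in both groups Cdkn1a fell in diabetic mice, with a log2 change of -0.67 (SE 0.15) and an adjusted p of 0.0118. The dimmer probe set of the gene gave the opposite sign for RBX in non-diabetic mice, -0.44 (SE 0.36), and -0.71 for the interaction, neither past the threshold. With the mean over both probe sets the RBX rise was 0.091, with an adjusted p of 0.705.

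Cdkn1c encodes p57, an imprinted inhibitor of the same family. Its signal in mice 1 to 4 was 2351, 2749.9, 3448 and 3405 in non-diabetic and 5885, 4129, 6494 and 10468 in non-diabetic RBX mice. In the diabetic groups it was 2908, 3158, 4545 and 4287 without and 6231, 3875, 4451 and 6895 with RBX. Every non-diabetic RBX mouse was above every non-diabetic mouse, while the diabetic groups overlapped. Cdkn1c rose from 2989 ± 532 to 6744 ± 2677 (SD, n = 4) with RBX in non-diabetic mice, by 1.11 (SE 0.24) on the log2 scale (adjusted p 0.00204). In diabetic mice the difference was 0.51 (SE 0.24), with an adjusted p of 0.526. Its averaged RBX rise was 0.81 (SE 0.17), with an adjusted p of 0.00313, and the interaction of -0.60 missed the threshold. Only 1 probe set measured the gene.

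Cdkn2c encodes p18, which blocks Cdk4 and Cdk6. It stood at 2281 ± 357 in non-diabetic and 2972 ± 341 in non-diabetic RBX mice (SD, n = 4), a difference of 0.39 (SE 0.15) with an adjusted p of 0.0506. Cdkn1b, which encodes p27, differed by -0.020 in the same comparison, with a 95% interval of -0.29 to 0.25. The cre control and the Actb ratio were higher in the non-diabetic RBX group, as given above. With the cre control as a covariate the RBX rise of Cdkn1a was 0.30 (adjusted p 0.715) and that of Cdkn1c 0.29 (adjusted p 0.83). With the Actb ratio they were 0.44 (adjusted p 0.457) and 1.15 (adjusted p 0.214). For diabetes with RBX Cdkn1a was at -0.50 (adjusted p 0.291) with cre, -0.61 (adjusted p 0.0759) with Actb, and -0.67 (adjusted p 0.0591) when only the groups compared were fitted. Because the cre signals of that group did not overlap the others, the group and the control cannot be told apart.

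**Figure D3:**
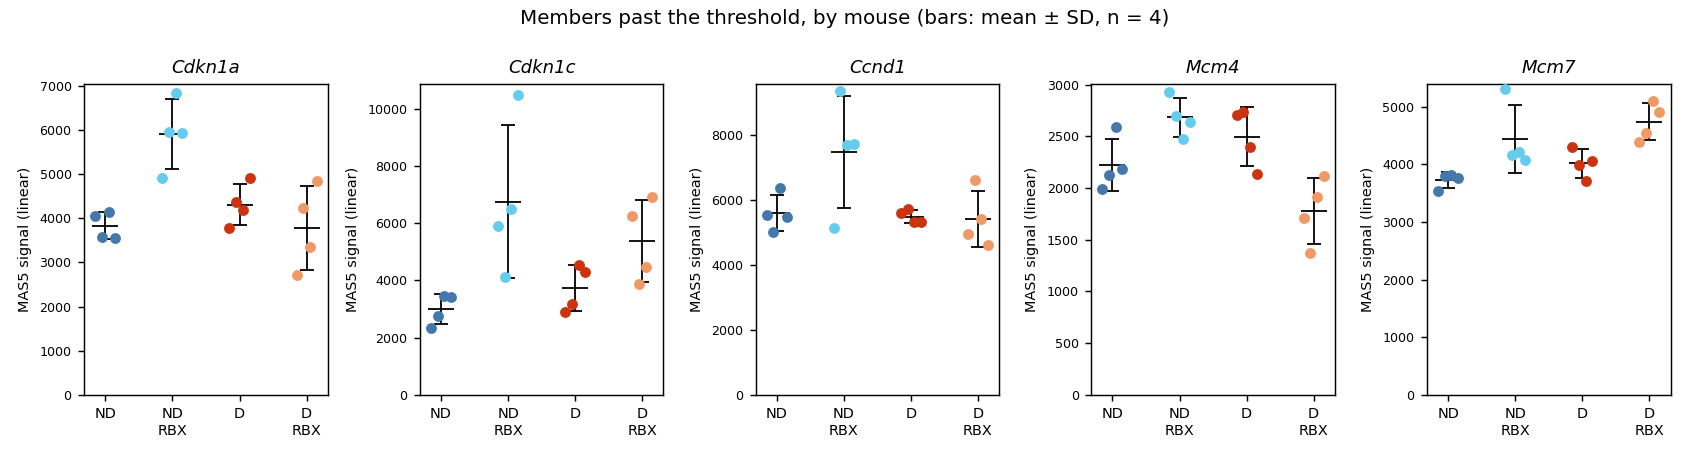
MAS5 signal on a linear scale (y axis, from 0) in each mouse for the 5 members that passed the test in any comparison. ND is non-diabetic, D diabetic, and RBX the inhibitor in the diet, with bars at the mean ± SD of 4 mice. Cdkn1a in the 4 non-diabetic RBX mice, at 4916 to 6849, lies above every other mouse, and Mcm4 is lowest in the diabetic RBX group, at 1368 to 2121.

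Among the G1 and S phase genes, Ccnd1 (cyclin D1) carries growth factor signals to Cdk4. Its signal in mice 1 to 4 was 5531, 5007, 6362 and 5475 in non-diabetic and 5142, 9336, 7695 and 7719 in non-diabetic RBX mice. It was 5588, 5714, 5312 and 5308 in diabetic and 4963, 6596, 5423 and 4621 in diabetic RBX mice. In the non-diabetic RBX group 3 mice were above all other mice, and mouse 1 lay within the non-diabetic range. The rise with RBX in non-diabetic mice was 0.39 (SE 0.15), with an adjusted p of 0.0496, at the edge of the threshold. It was lost in 6 of 8 fits that left out 1 mouse of these groups, namely without non-diabetic mouse 1, 2 or 4 or without non-diabetic RBX mouse 2, 3 or 4. With the cre control or the Actb ratio as a covariate the sign reversed, to -0.15 in both fits. Its other probe sets gave 0.27 and 0.36. With RBX in both groups the diabetic mice were at -0.45 (SE 0.15) relative to non-diabetic mice, with an adjusted p of 0.0713. The next probe set of the gene gave -0.55 for that comparison, with an adjusted p of 0.0260 when every probe set was tested apart.

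Ccne1 (cyclin E1) activates Cdk2 at the start of replication. Its signal in mice 1 to 4 was 406, 305, 283 and 589 in non-diabetic and 613, 766, 475 and 582 in diabetic mice. With RBX it was 313, 266, 285 and 389.9 in non-diabetic and 287, 636, 436 and 529 in diabetic mice. The non-diabetic and diabetic groups overlapped through non-diabetic mouse 4. The diabetic difference without RBX was 0.66 (SE 0.31), with an adjusted p of 0.324, and averaged over both diets it was 0.60 (SE 0.22), with an adjusted p of 0.377. The other 4 members of this group passed no test. Ccnd2 and Ccnd3, the other D-type cyclins, differed by 0.033 and -0.27 with diabetes without RBX. In the same comparison Cdk2, the kinase partner of cyclin E, differed by 0.089 and Cdk4, that of the D-type cyclins, by 0.20. For RBX in diabetic mice Ccnd2 did not overlap between groups on its tested probe set. It read 18380.5 to 20522 without and 16369.6 to 17399 with RBX, a difference of -0.20 with an adjusted p of 0.597. The other probe sets of Ccnd2 overlapped, the next brightest at 16038 to 20002 without and 16376 to 17594 with RBX.

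The MCM helicase has 6 subunits, Mcm2 to Mcm7, and all 6 were tested. Mcm4 in mice 1 to 4 read 1991, 2128, 2586 and 2189 in non-diabetic and 2932, 2696, 2472 and 2637 in non-diabetic RBX mice. It read 2711, 2739.6, 2399 and 2133 in diabetic and 1709, 1368, 1917 and 2121 in diabetic RBX mice. Every diabetic RBX mouse was below every diabetic mouse and every non-diabetic RBX mouse, though the group overlapped the non-diabetic mice. With RBX in both groups Mcm4 fell in diabetes, from 2684 ± 190.2 to 1779 ± 321 (SD, n = 4), with a log2 change of -0.61 (SE 0.14) and an adjusted p of 0.0112. The interaction was -0.78 (SE 0.19), with an adjusted p of 0.0153. RBX in diabetic mice gave -0.50 (SE 0.14), with an unadjusted p of 0.00178 and an adjusted p of 0.234. These calls rest on 1 probe set, whose array name carries the suffix "x" for probes that can match other sequences. The other probe set of Mcm4 gave 0.11 for diabetes with RBX and -0.10 for the interaction. With the mean over both, Mcm4 was at -0.25 (adjusted p 0.184) and -0.44 (adjusted p 0.0825). With the cre control as a covariate diabetes with RBX gave -0.55 (adjusted p 0.219), and with the Actb ratio -0.55 (adjusted p 0.0747).

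Mcm7 in mice 1 to 4 read 3533, 3803, 3819.9 and 3773 in non-diabetic and 5316, 4161, 4215 and 4085 in non-diabetic RBX mice. It read 4310.2, 3996, 3711 and 4066 in diabetic and 4397, 4552, 5102 and 4914 in diabetic RBX mice. On this tested probe set, RBX and untreated mice did not overlap within either diabetes state. The RBX differences were 0.24 (SE 0.098) in non-diabetic mice (adjusted p 0.0657) and 0.24 (SE 0.098) in diabetic mice (adjusted p 0.466). Averaged over both, Mcm7 rose by 0.24 (SE 0.069), with an adjusted p of 0.0211. Its other 3 probe sets gave 0.24, 0.12 and 0.22 for the averaged effect, none past the threshold. In diabetic mice all 3 overlapped between RBX and untreated mice. The next brightest read 1390 to 1581 without and 1468 to 1867 with RBX. In non-diabetic mice it did not overlap, at 1300 to 1484 without and 1633 to 2150 with RBX. Mcm7 was the only subunit above 0 for the averaged RBX effect, as 5 of the 6 lay below 0. With the cre control as a covariate this effect was 0.37 (adjusted p 0.168), and with the Actb ratio 0.30 (adjusted p 0.316).

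The other helicase subunits passed no test. Mcm5 read 1040.4 to 1654 in non-diabetic and 1657 to 1999.7 in diabetic mice, without overlap, a difference of 0.34 (SE 0.18) with an adjusted p of 0.368. In diabetic RBX mice it read 1157 to 1555, below every diabetic mouse, at -0.35 (SE 0.18) with an adjusted p of 0.557. These values are of a probe set with the suffix x described for Mcm4. The tested probe sets of Ccne1, Cdk4, Rrm2 and Cdc20 carry that suffix as well. The other probe set of Mcm5 above the median overlapped in both comparisons. It read 312 to 546 in non-diabetic, 447 to 978 in diabetic and 490 to 520 in diabetic RBX mice. Mcm2 differed by -0.54 with RBX in diabetic mice, with a 95% interval of -1.19 to 0.11, and Mcm3 by -0.23 (-0.53 to 0.065). Mcm6 was the exception in diabetes without RBX, at -0.16, while the 5 other subunits lay above 0.

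Pcna is the sliding clamp that holds DNA polymerases on their template, and Rrm1 and Rrm2 form ribonucleotide reductase, which makes deoxyribonucleotides. Pcna in mice 1 to 4 read 12320.2, 11591, 14283 and 13054 in non-diabetic and 10336, 10724, 12679 and 12706 in non-diabetic RBX mice. It read 11358, 12859.5, 14177 and 14966 in diabetic and 12299, 10729.7, 11881 and 10713 in diabetic RBX mice. The groups overlapped throughout. RBX in diabetic mice gave -0.22 (SE 0.10), with an adjusted p of 0.532, and the averaged RBX effect was -0.18 (SE 0.074), with an adjusted p of 0.0858. Rrm1 read 2096, 1758, 1662 and 1998 in non-diabetic and 2002, 2019, 1951 and 2258 in diabetic mice. With RBX it read 1373, 1851, 1709 and 1555 in non-diabetic and 1698, 2367, 1957 and 1574 in diabetic mice. Its diabetic difference was 0.14 (SE 0.14) without RBX and 0.22 (SE 0.14) with RBX, and these groups overlapped. Rrm2 differed by 0.15 and -0.24 in the same comparisons. The other probe set of Rrm1 above the median went the other way for diabetes with RBX. It read 922 to 1385 in non-diabetic RBX and 676 to 1044.5 in diabetic RBX mice. In diabetic mice without RBX it read 1149 to 1329, above every diabetic RBX mouse.

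None of the 10 tested genes of mitosis passed the test in any of the 7 comparisons. Of all genes, 0.0453% (RBX in diabetic mice) to 31.6% (RBX in non-diabetic mice) were called in these comparisons. Mki67 encodes the proliferation antigen Ki-67, which coats mitotic chromosomes. Its signal in mice 1 to 4 was 2190, 1935, 1714 and 2062 in non-diabetic and 1925, 2250.5, 1890.3 and 2764 in diabetic mice. With RBX it was 1539, 1586, 2697 and 1876 in non-diabetic and 1785, 2682, 2246 and 1748 in diabetic mice. The highest values were those of diabetic mouse 4, non-diabetic RBX mouse 3 and diabetic RBX mouse 2, and all groups overlapped. The difference was 0.15 (SE 0.18) with diabetes, with a 95% interval of -0.24 to 0.53, and -0.067 (SE 0.18) with RBX in diabetic mice, with an interval of -0.45 to 0.32.

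Top2a encodes topoisomerase II alpha, which untangles replicated chromosomes. It read 1179, 1312, 1472 and 1287 in non-diabetic and 1360.5, 1130.3, 1744 and 1232 in non-diabetic RBX mice. It read 1218, 1738, 1597 and 1893 in diabetic and 1122, 1437, 1064 and 1105 in diabetic RBX mice. Of the diabetic mice 3 were above all diabetic RBX mice, and mouse 1 lay within their range. RBX in diabetic mice gave -0.44 (SE 0.17), with an unadjusted p of 0.0169 and an adjusted p of 0.426. The diabetic difference without RBX was 0.28 (SE 0.17), with an adjusted p of 0.446. Nusap1, which bundles spindle microtubules, read 821, 618, 706 and 513 in non-diabetic and 700.5, 1052, 1053 and 676 in diabetic mice. With RBX it read 574, 459, 548 and 802 in non-diabetic and 498, 1365, 819 and 609 in diabetic mice. Its difference was 0.38 (SE 0.29) with diabetes and 0.39 (SE 0.29) with diabetes under RBX, with overlapping groups in both.

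Cdk1 is the kinase of mitotic entry, and Ccnb2 (cyclin B2) and Ccna2 (cyclin A2) are its partners. Ccnb2 read 595, 589.6, 464 and 372 in non-diabetic and 619, 622, 773 and 857 in diabetic mice. With RBX it read 751, 601, 635 and 682 in non-diabetic and 754, 999.7, 671 and 426 in diabetic mice. The non-diabetic mice were below every diabetic and every non-diabetic RBX mouse, whereas the diabetic RBX mice spread from 426 to 999.7. The differences from non-diabetic mice were 0.52 (SE 0.25) in diabetic mice (adjusted p 0.338) and 0.42 (SE 0.25) with RBX (adjusted p 0.212). Cdk1 read 728, 666, 648 and 1020.4 in non-diabetic and 716, 1014, 1115 and 1243 in diabetic mice. With RBX it read 580, 633, 1052 and 799.5 in non-diabetic and 782, 1048, 1115 and 678 in diabetic mice. Its groups overlapped, and its diabetic difference was 0.41 (SE 0.24), with a 95% interval of -0.091 to 0.92. Ccna2 differed by 0.29 (-0.26 to 0.84).

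Aurka (Aurora A) builds the spindle poles. It read 526, 309, 381 and 201 in non-diabetic and 332, 749.5, 989 and 449 in non-diabetic RBX mice. It read 604, 502, 549 and 525 in diabetic and 551, 249.4, 334 and 278 in diabetic RBX mice. The diabetic mice lay close together, at 502 to 604, and the other groups were wider and overlapped. The interaction of -1.48 (SE 0.53) was the lowest of any member, with an unadjusted p of 0.0112 and an adjusted p of 0.0745. Birc5 (survivin), a subunit of the complex that corrects chromosome attachment, read 694, 667, 715 and 604 in non-diabetic and 491, 982, 674 and 814 in diabetic mice. With RBX it read 676, 714, 940.2 and 420.2 in non-diabetic and 499, 699, 630.1 and 496 in diabetic mice. Its groups overlapped, and its values ran from -0.32 with RBX in diabetic mice to 0.10 with diabetes. Plk1, a kinase of mitotic progression, differed by 0.071 with diabetes (-0.69 to 0.84), and Cdc20, which activates the anaphase promoting complex, by 0.22 (-0.42 to 0.86).

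**Figure D4:**
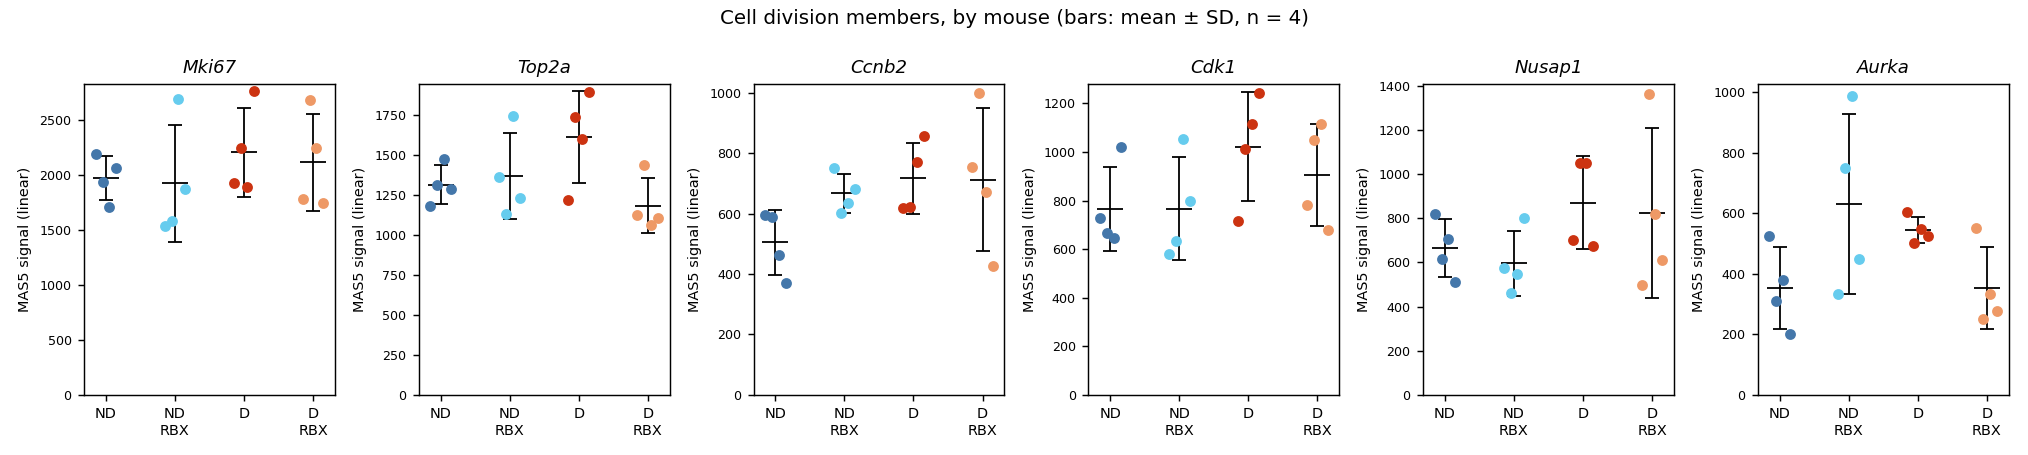
MAS5 signal on a linear scale (y axis, from 0) in each mouse for 6 genes of mitosis, by group. ND is non-diabetic, D diabetic, and RBX the inhibitor in the diet, with bars at the mean ± SD of 4 mice. Ccnb2 in diabetic mice, at 619 to 857, lies above the non-diabetic mice, at 372 to 595, whereas the groups overlap for Mki67, Cdk1 and Nusap1.

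Diabetic mouse 4 held the highest value of 8 of the 29 tested members, and the diabetic group held the highest value of 11 and the lowest of 0. The non-diabetic RBX group held the highest of 10 and the lowest of 13. These counts were not made over all genes, so they are not read as a trait of the members. Over the 10 tested genes of mitosis the median deviation from the mean of 16 mice was 0.44 in diabetic mouse 4, 0.35 in non-diabetic RBX mouse 3 and 0.34 in diabetic RBX mouse 2, and -0.19 in diabetic mouse 1. It was -0.30 in diabetic RBX mouse 4. The same median over all genes tested lay between -0.032 and 0.064 in every mouse. Of 39 relations between the deviations of Mki67 from its group means and those of other members, markers or controls, over the 16 mice, 0 passed a permutation test after adjustment, and 8 had an unadjusted p of Pearson's r under 0.05. The lowest correlation, -0.711, was with the mean log2 deviation of the white adipocyte markers above the median signal (Spearman's rho -0.538, adjusted p of r 0.177). The highest, 0.794, was with Cdk1 (rho 0.794, adjusted p of r 0.0894). Without the mice farthest out, non-diabetic RBX mouse 3 and diabetic RBX mouse 2, r was -0.622 and 0.730.

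**Figure D5:**
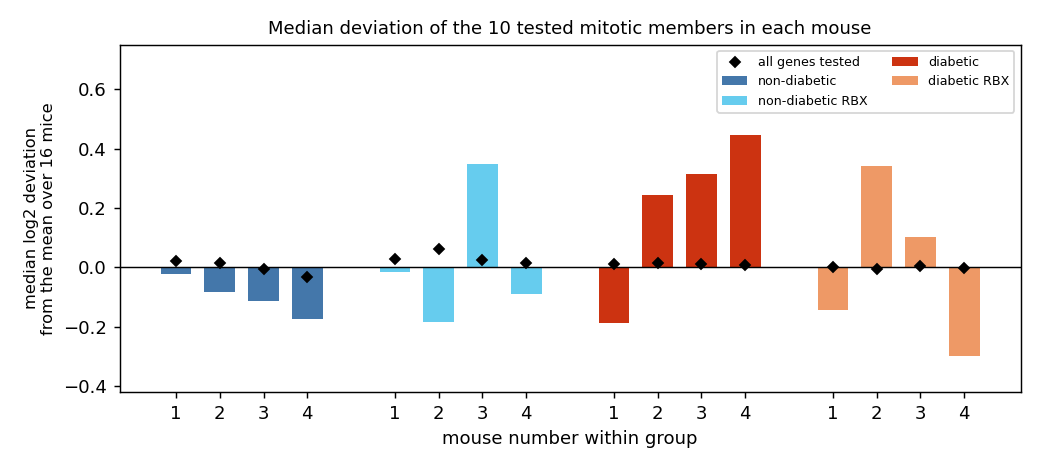
Median log2 deviation of the 10 tested genes of mitosis from their mean over 16 mice (y axis, bars) in each mouse of the 4 groups (x axis), with the same median over all genes tested as diamonds. Diabetic mice 2 to 4 are above 0 and diabetic mouse 1 below, while each RBX group has mice on both sides.

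The 6 members below the median signal were fitted without the filter, among all genes with a probe set. Tyms makes thymidylate, Bub1 and Bub1b serve the spindle checkpoint, Aurkb corrects chromosome attachment, Kif11 separates spindle poles, and Ect2 starts cytokinesis. None passed the threshold, and their intervals were wide. With diabetes without RBX their differences ran from 0.020 for Ect2 (95% interval -1.18 to 1.22) to 0.52 for Bub1b (-0.65 to 1.69). With RBX in diabetic mice they ran from -0.79 for Aurkb (-2.28 to 0.71) to 0.25 for Kif11 (-0.71 to 1.21).

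Other genes of the same pathways were counted from lists. Of 28 tested other mitosis genes, such as those of kinetochores and cytokinesis, 0 passed for diabetes without RBX and 24 lay above 0, with a median of 0.26. Over all genes 0.652% were called, 52.4% lay above 0 and the median was 0.013. Of 20 other replication genes 0 passed and 11 lay above 0. For cell cycle transcription factors and pocket proteins 0 of 14 passed and 5 lay above 0. For other cyclins, kinases and inhibitors it was 0 of 18 and 7, and for p53 targets 0 of 10 and 4. None of these lists had a call for RBX in diabetic mice, where 0.0453% of all genes were called.

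For RBX in non-diabetic mice 31.6% of all genes were called, 16.5% higher and 15.1% lower, and the shares of the 4 lists that follow lay below that. Here 5 of 20 other replication genes rose (Cdt1, Pola2, Pold1, Fen1 and Rfc5) and 1 fell (Dut). Cdt1, which loads the helicase, rose by 0.84 (SE 0.16), with an adjusted p of 0.000730, and Pola2 and Pold1, subunits of DNA polymerases, by 0.96 (SE 0.22) and 0.72 (SE 0.19). Of 28 other mitosis genes 3 fell (Anln, Pttg1 and Bub3) and 0 rose, and of them the cytokinesis scaffold Anln was at -1.94 (SE 0.32), with an adjusted p of 0.000225. Of 14 transcription factors and pocket proteins 2 rose (E2f4 and Myc) and 2 fell (Rbl2 and E2f6), with E2f4 at 0.97 (SE 0.25) and the pocket protein Rbl2 at -0.45 (SE 0.12). Of 18 other cyclins, kinases and inhibitors 1 rose (Ccnl1) and 3 fell (Ccng1, Cdc14b and Tob1), with Ccnl1 at 0.80 (SE 0.19) and Ccng1 at -0.31 (SE 0.090). For this comparison, genes given without a value, here and among the p53 targets, lay past the first 10 by p and were named after their values were seen. Cre, the Actb ratio and the summed cell type markers moved with this comparison, and their part in these lists was not tested.

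Of 10 p53 targets 2 rose with RBX in non-diabetic mice (Phlda3 and Gadd45a) and 2 fell (Perp and Fas), or 40% of the list, against 31.6% of all genes. Phlda3 rose by 0.65 (SE 0.11), and Perp was at -1.21 (SE 0.16) as a log2 change. For the interaction Phlda3 was at -0.82 (SE 0.15), below 0 like Cdkn1a, and Perp at 1.54 (SE 0.23), above 0, so that 2 of 10 targets were called, against 11.5% of all genes. For diabetes with RBX Anln and Perp rose, at 1.16 (SE 0.32) and 1.08 (SE 0.16), and Phlda3 fell, at -0.49 (SE 0.11), while 7.1% of all genes were called. For the interaction, 2 of 20 other replication genes were called, Cdt1 at -0.93 (SE 0.22) and Pola2 at -1.04 (SE 0.31). Of 28 other mitosis genes 3 were called, Anln and Pttg1 above 0, at 2.17 (SE 0.45) and 0.52 (SE 0.15), and the centromere histone Cenpa below 0, at -0.88 (SE 0.28). Averaged over both diabetes states, against 19.9% of all genes called, 4 of 20 other replication genes rose with RBX (Pold1, Fen1, Cdt1 and Chaf1b) and 1 fell (Dut), while 3 of 28 other mitosis genes fell (Anln, Bub3 and Cks1b). In the remaining lists E2f4, Ccnl1 and Phlda3 rose, and E2f6, Cdkn2b, Ccng1, Ccne2 and Perp fell. The smallest adjusted p among these was that of Ccnl1, which rose by 0.65 (SE 0.14) (adjusted p 0.00313). For Anln, Perp, Phlda3 and Cdt1 the mean signal moved in opposite directions with RBX in non-diabetic and diabetic mice. In non-diabetic mice Anln went from 7617 to 2206, Perp from 6216 to 2761 and Phlda3 from 4746 to 7472. In diabetic mice they went from 3758 to 4482, 4542 to 5715 and 5968 to 5303. Cdt1 went from 1728 to 3105 in non-diabetic and from 2450 to 2273 in diabetic mice. For these genes the average describes neither state. These comparisons share the RBX mice with the preceding ones. In this averaged comparison Chaf1b, Cdkn2b, Ccne2, Phlda3, Ccng1 and E2f4 lay past the first 10 by p.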

How the data were processed

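Expression was measured on 16 arrays, 1 per mouse, in 4 groups of 4 taken from the sample titles. The submitters' processing notes name MAS5 and no version. For each array the authors deposited linear intensity values of 45101 probe sets, scaled to a trimmed mean of 1500.01. Signals were put on the log2 scale without an offset. Leaving out 64 control probe sets, those with a mean log2 signal over the median (a linear signal of 382) were kept, and the brightest kept probe set of each gene was used. Symbols were those of RefSeq where the gene number in GEO's platform annotation was found there, and otherwise those of the annotation. A limma 3.58.1 fit (R 4.3.3) held all 16 arrays, with a mean per group, an intensity trend and 12 residual degrees of freedom. Two-sided p-values were adjusted (Benjamini-Hochberg, 11042 genes) within each of 7 comparisons, and "rose" or "fell" means an adjusted p under 0.05. The pipeline was tested on simulated data. A simulated log2 change of 0.5 was called in 29% of changed genes for diabetes without RBX and 23% for RBX in diabetic mice. For a change of 1 the share was 76% in either comparison. The number of arrays limits the precision.

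The members, lists and tests were chosen with earlier results of these data known. All members may be named. Values in every mouse are given for members past the threshold, for the 2 of each role with the smallest p, and for Mki67, Top2a, Ccnd1 and Cdkn1a. Of other lists, the 10 called genes with the smallest p in a comparison are named; further called genes are named where a list had 5 or fewer in a direction, chosen after their values were seen. Correlations used 100000 permutations. Alternatives changed the normalization, filter, offset, probe set rule, variance model, covariates, groups fitted and mice included. Same-numbered mice of different groups did not deviate together, with a mean correlation of 0.013, so the numbers were not treated as pairs. Promoters came from RefSeq on GRCm38.p6.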

Additional observations from a re-analysis of the deposited data

Results flagged for a closer look

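In 2 of 60 sets of 4 mice, over 15 members, 1 mouse stood far from the others by Dixon's ratio, and chance gives about 1 in 20. Both concerned Mcm7. Non-diabetic mouse 1 read 3533, against 3773 to 3820 in the other non-diabetic mice. Non-diabetic RBX mouse 1 read 5316, against 4085 to 4215 in the others of its group. These mice are at the opposite ends of the RBX difference of Mcm7, and without the latter the averaged RBX rise was still called.

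The effect of RBX differed between diabetic and non-diabetic mice, by the interaction term, for 2 members. Cdkn1a gave -0.84 (limma, adjusted p 0.0176) and Mcm4 gave -0.78 (adjusted p 0.0153). Of all genes 11.5% were called for the interaction, and of the members 6.9%. The other probe set of Mcm4 gave -0.10, and the dimmer one of Cdkn1a gave -0.71, neither past the threshold. Both calls were lost with the cre control or the Actb ratio as a covariate.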

How the results depend on the processing

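Of the called members, Cdkn1c for RBX and Mcm7 for the averaged RBX effect were lost only with the cre control or the Actb ratio as a covariate, and so was the Cdkn1a interaction. Under either covariate 0 members were called for diabetes with RBX, the interaction, averaged RBX and RBX in non-diabetic mice, in place of 2, 2, 2 and 3. Calls over all genes fell likewise, in that order from 784, 1272, 2199 and 3494 to 48, 0, 12 and 0 with cre and to 289, 341, 0 and 174 with Actb. Ccnd1 with RBX in non-diabetic mice was then at -0.15 (adjusted p 0.857) with cre and -0.15 (adjusted p 0.791) with Actb, and over its 22 alternatives it was kept in 9, missed the threshold in 11 and reversed in those 2. Quantile normalization and array weights each gave 5 for RBX in non-diabetic mice. The mean over probe sets gave 1 for diabetes with RBX and 1 for the interaction, and fitting only the groups compared gave 1 for diabetes with RBX. Leaving out 1 mouse gave 2 to 5 for RBX in non-diabetic mice (5 without non-diabetic mouse 3 or non-diabetic RBX mouse 1), 2 to 3 for diabetes with RBX, and 2 to 4 for the interaction and 2 to 4 for averaged RBX (4 each without non-diabetic RBX mouse 1). For diabetes without RBX and RBX in diabetic mice 0 members were called under every alternative run. With the replicate block the member count for RBX in non-diabetic mice was 3, and it changed no member count, while all genes called for diabetes without RBX went from 72 to 170. Over alternatives other than left-out mice, 15 to 31 members lay above 0 for diabetes without RBX, with 19 to 35 tested. The count of all genes called for that comparison ranged widely: 1207 with array weights, 4 with cre, and 1 without diabetic mouse 3.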
